A study of Mus musculus with 4 samples.

Results

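Peaks of SMAD4, the partner that receptor-activated SMAD proteins share when they carry TGFβ signals to the nucleus, were examined at 4 MAF family genes of mouse alveolar macrophages (AMs): Maf, Maff, Mafg and Mafk. A peak was given to a gene when its summit lay in the gene body or within 100 kb of a transcription start site (TSS) of the gene in the curated RefSeq transcripts. A shared region is the union of overlapping peaks (1 bp or more) of the 2 replicates. The 4 genes are 4 of 20923 curated protein-coding genes, and the rule gave them 6 of 10964 shared regions, 5 at Maff and 1 at Mafg. It gave none to Maf or Mafk. Of the 6 regions, 3 had a MAF gene as the gene with the nearest TSS.

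AMs, the resident macrophages of the airspaces, came from bronchoalveolar lavage of 9-week-old wild-type C57BL/6J mice and were sorted by flow cytometry. SMAD4 binding was profiled with a combination of SMAD4 antibodies by HT-ChIPmentation, where immunoprecipitated chromatin is tagged with sequencing adapters by Tn5 transposase before it leaves the beads. The 4 samples were 2 SMAD4 immunoprecipitations and 2 inputs made without antibody, all from wild-type AMs, so that no treatment, genotype or time could be compared. The sources used here do not say whether the 2 SMAD4 libraries came from separate mice, and the spread between them may be technical.

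MAF proteins are basic leucine zipper factors that bind DNA as dimers at MAF recognition elements. Large MAF proteins such as c-MAF, encoded by Maf, carry a transactivation domain, and c-MAF restrains the self-renewal of macrophages. The small MAF proteins MAFF, MAFG and MAFK lack that domain and pair with CNC factors such as NRF2 (Nfe2l2) or with BACH1 and BACH2, which turn the same antioxidant and heme-response elements on or off.

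The regions that carry the values below are shown as windows of 201 bp around the mean summit of both replicates, from the plus strand of the RefSeq GRCm38 genome, the assembly that mm10 names. They are numbered along the chromosome. Maff 2 (chr15:79346421-79346621) and Maff 3 (chr15:79354843-79355043) are shown as the regions nearest to Maff, Mafg 1 (chr11:120630542-120630742) as the region nearest to Mafg, Maff 1 (chr15:79323479-79323679) as the strongest, by the smaller fold of the 2 replicates, of the regions that the rule gave to Maff but that lay nearest to another gene (Maff 5 was higher in replicate 2), and the Mafk window (chr5:139795039-139795239) as the single peak of that gene, called in replicate 2 alone. Capitals mark the strings that were searched on both strands.
Maff 1: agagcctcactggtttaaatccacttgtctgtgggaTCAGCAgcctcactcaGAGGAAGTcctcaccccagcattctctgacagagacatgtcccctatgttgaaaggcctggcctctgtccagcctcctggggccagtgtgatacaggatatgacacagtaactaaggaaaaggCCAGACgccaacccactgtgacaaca
Maff 2: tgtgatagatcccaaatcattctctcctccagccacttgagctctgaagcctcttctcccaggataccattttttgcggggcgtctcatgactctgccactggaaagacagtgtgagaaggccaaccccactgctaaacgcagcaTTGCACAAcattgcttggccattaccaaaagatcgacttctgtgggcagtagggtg
Maff 3: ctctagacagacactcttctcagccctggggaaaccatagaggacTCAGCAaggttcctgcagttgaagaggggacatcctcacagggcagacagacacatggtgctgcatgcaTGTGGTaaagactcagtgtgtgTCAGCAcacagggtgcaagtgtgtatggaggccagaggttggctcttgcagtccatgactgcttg
Mafg 1: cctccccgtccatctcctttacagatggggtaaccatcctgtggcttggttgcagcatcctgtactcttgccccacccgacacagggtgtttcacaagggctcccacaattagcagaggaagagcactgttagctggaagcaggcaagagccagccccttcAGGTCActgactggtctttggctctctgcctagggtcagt
Mafk replicate 2 peak: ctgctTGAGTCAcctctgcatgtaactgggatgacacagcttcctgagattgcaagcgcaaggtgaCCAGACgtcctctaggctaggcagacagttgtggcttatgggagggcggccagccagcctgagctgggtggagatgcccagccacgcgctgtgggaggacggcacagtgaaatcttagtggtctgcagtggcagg

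The lists held 16369 peaks in replicate 1 and 19015 in replicate 2, with medians of 17 and 14 fragments at the summit. Fold enrichment is the number of fragments at the summit plus 1 over the control level plus 1, as the peak caller writes it. At background, the control levels were 2.08 fragments (replicate 1) and 1.22 (replicate 2), so the same number of fragments gives a higher fold in replicate 2, and across all shared regions the fold in replicate 2 was at the median 1.39 times that in replicate 1. Each list is therefore read on its own scale or by rank.

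The rule found 6 peaks at MAF genes in replicate 1 and 13 in replicate 2. All 6 peaks of replicate 1 overlapped a peak of replicate 2, and 7 peaks of replicate 2 had no counterpart. A shared region by the rule was present at 2 of the 4 genes, beside 54.9% of all protein-coding genes. A peak of replicate 1 was present at the same 2 genes, Maff and Mafg, against a background of 64.1%, and a peak of replicate 2 at 3 of 4, with Mafk added, against 68.8%. A shared region that met the rule and was nearest to the gene itself was present at 2 of 4, Maff and Mafg, beside 20.9%. A shared region had its summit inside the gene body at 2 of 4 genes, beside 13.9% of all genes, and in a promoter (between 1 kb before and 100 bp after a TSS) at Maff alone, beside 3.1%. With 4 genes, these counts describe the members and were not tested.

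**Figure D1:**
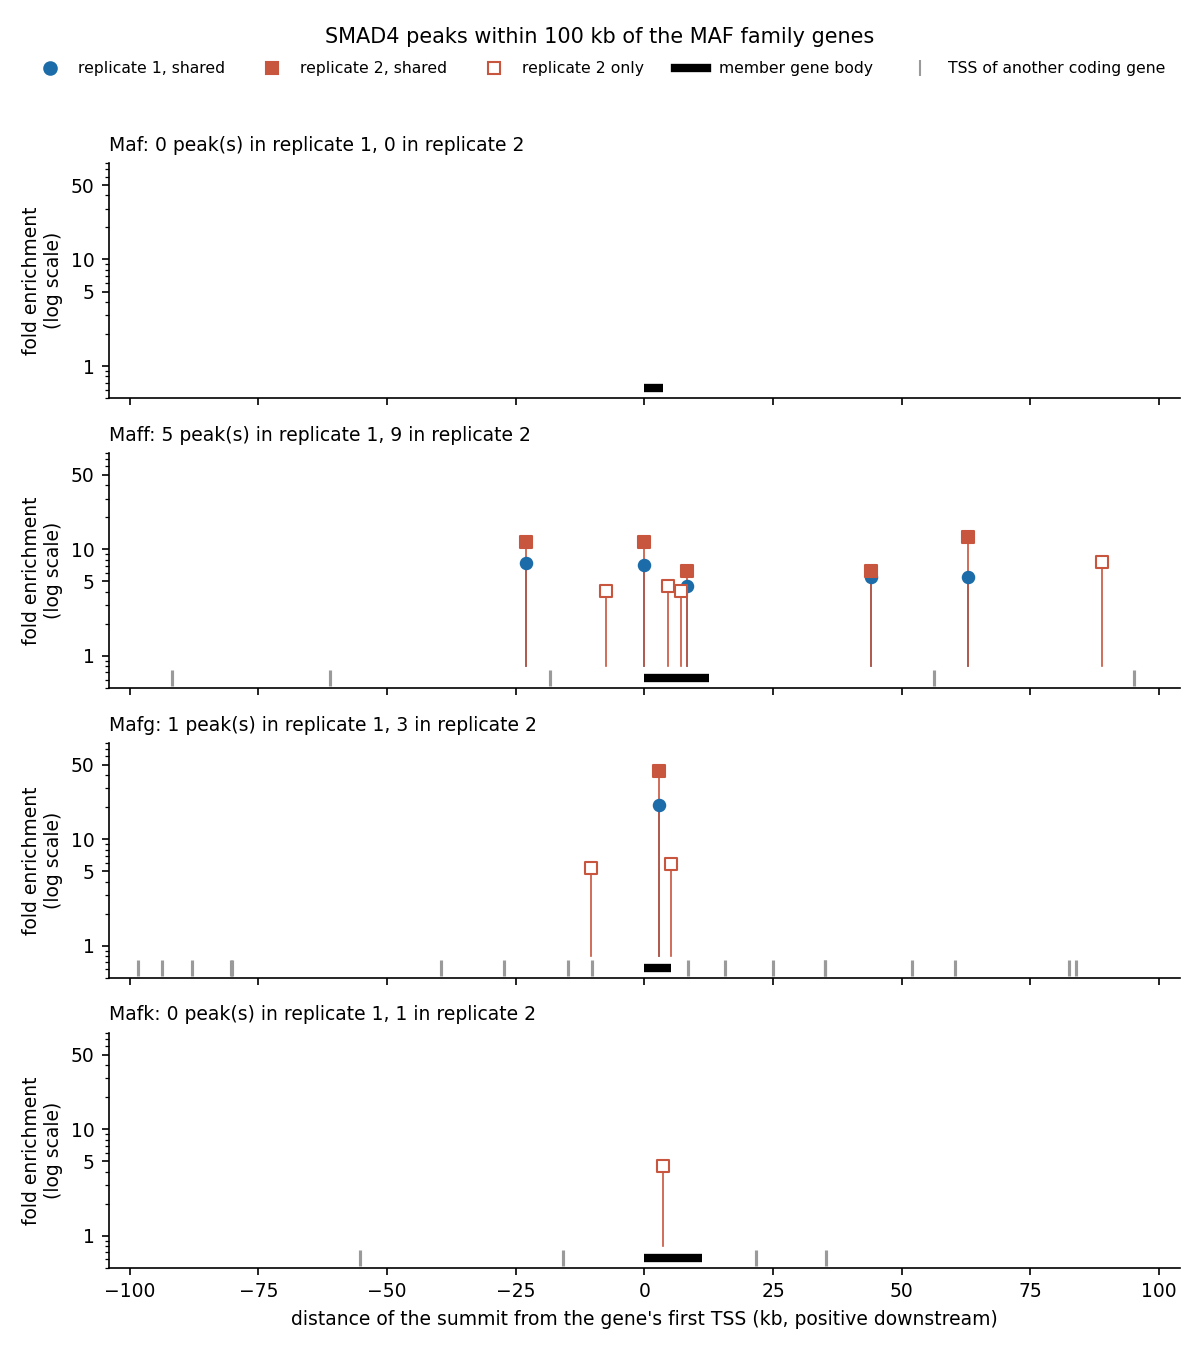
Fold enrichment (log axis) of each SMAD4 peak against the distance of its summit from the first TSS of the gene, in kb and in the direction of transcription, with a panel for each gene. Circles are peaks of replicate 1 and squares peaks of replicate 2, filled where shared and open where found in replicate 2 alone. The black bar is the gene body and grey ticks are TSSs of other coding genes. Maf has no peak, Mafk has 1 open square, and the Mafg intron pair at 21.1 and 43.3 stands above every other peak drawn.

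Maf (chr8:115703253-115706894, minus strand), the large MAF gene of the set, had 0 peaks in either list. It has 1 TSS and a single curated exon, and no other coding gene has a TSS within 100 kb. Of the 2713 protein-coding genes with such an empty neighbourhood, 38.5% had a shared region by the rule. The gene lay in a stretch of 1200 kb between flanking shared regions. The nearest shared region was 278.7 kb from the TSS, and 21.9% of all protein-coding genes were at least as far from one, with a median of 84.7 kb.

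A shared region at any distance had a MAF gene TSS as its nearest at Maf, Maff and Mafg, 3 of 4 genes, beside 21.5% of all genes. At Maf these were 3 regions, all downstream and beyond the limit of the rule. The strongest (chr8:115423019-115423562) was intergenic, 283.7 kb from the TSS, with folds of 9.85 and 16.7 from 32 and 39 fragments, and its window held the AP-1 string. The weakest (chr8:115427981-115428282) was the closest, at 278.7 kb, with folds of 6.50 and 4.96 from 19 and 10 fragments and a C/EBP string. The third (chr8:115276215-115276641) lay 430.4 kb away in an intron of Wwox, which encodes a WW-domain oxidoreductase, with folds of 8.78 and 14.4 from 26 and 31 fragments and none of the strings. Annotation by nearest TSS thus named Maf, while the rule did not.

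Maff (chr15:79346621-79359076, plus strand), a small MAF gene with 4 curated TSSs and 5 other coding genes within 100 kb, had 5 peaks in replicate 1 and 9 in replicate 2. Its 5 shared regions put it among the 8.51% of protein-coding genes with as many or more. The folds of the 5 regions were 4.55 to 7.48 in replicate 1 and 6.28 to 13.1 in replicate 2, on either side of the medians of all shared regions, 6.83 and 9.48. By the smaller of both folds they ranked between the top 38.6% and the top 83.1% of shared regions.

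The promoter region Maff 2 (chr15:79346324-79346729) had its mean summit 100 bp upstream of the first TSS. It had a fold of 7.15 in replicate 1, from 21 fragments (exact Poisson 95% interval 13 to 32.1, for counting error only), with q = 3.12e-12 as the caller gave it. In replicate 2 the fold was 11.7, from 25 fragments (16.2 to 36.9), with q = 4.48e-22. The intervals of the fragment numbers overlap, and the summits lay 28 bp apart. By fold the peak was in the top 29.7% of replicate 1 and the top 20.3% of replicate 2. Its window held the C/EBP string as TTGCACAA (chr15:79346566-79346573), whose first base is 55 bp upstream of the TSS. C/EBP factors are basic leucine zipper proteins of the myeloid lineage.

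The intronic region Maff 3 (chr15:79354803-79355064), 6.54 kb downstream of the nearest Maff TSS, was the weakest of the 6 in replicate 1. In replicate 2 Maff 4 was slightly lower by fold alone. Maff 4 had more fragments there, 16 against 13, over a higher control level of 1.71 against 1.22. Maff 3 had a fold of 4.55 in replicate 1 and 6.32 in replicate 2, each from 13 fragments (6.92 to 22.2). Its rank was in the top 69.3% and the top 53.0% of peaks, and q was 5.1e-05 and 6.89e-08. Its peaks, chr15:79354945-79355064 in replicate 1 and chr15:79354803-79354960 in replicate 2, overlapped only at their ends. Each summit lay outside the peak of the other replicate. The window of Maff 3 held the RUNX string TGTGGT and 2 copies of the MAF core string, read as TCAGCA on the plus strand.

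The other 3 regions at Maff were nearest to the TSS of another gene. Maff 1 (chr15:79323256-79323796), 23.0 kb upstream of Maff, lay in an intron of Pla2g6, which encodes a calcium-independent phospholipase A2, 4.79 kb from its TSS. It had folds of 7.48 and 11.7 from 22 fragments (13.8 to 33.3) and 25 fragments (16.2 to 36.9), values close to those of the promoter region. Its window held the PU.1 string GAGGAAGT, the SMAD string GTCTGG (as CCAGAC on the plus strand) and a MAF core string. Maff 4 and Maff 5 lay 42.2 and 61.1 kb downstream, in an intron of Tmem184b, which encodes a transmembrane protein, and between genes with Tmem184b as the nearest. Maff 4 had folds of 5.53 and 6.28, from 16 fragments in each replicate. Maff 5 had the least even pair, with folds of 5.53 and 13.1 from 16 fragments (9.15 to 26.0) and 28 fragments (18.6 to 40.5). The ratio of 2.37 was at percentile 96.7 of all shared regions. The intervals of the fragment numbers overlap. They are not scaled to the control levels, 2.08 in replicate 1 and 1.22 in replicate 2, so the overlap does not bear on the ratio of folds. Both windows held the C/EBP string, as TTATGCAA and TTAGGCAA.

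Just beyond the limit, the next shared region downstream of Maff (chr15:79456239-79456598) lay 108.0 kb from its nearest TSS, with folds of 5.07 and 8.37, and was nearest to Csnk1e, the casein kinase 1 epsilon gene. Upstream of Maff 1 the next shared region was 467.3 kb from Maff. In replicate 2 alone, 4 further peaks met the rule at Maff, 3 of them nearest to Maff, with folds of 4.51, 4.06 and 4.06 from 9, 8 and 8 fragments, and 1 in an intron of Csnk1e with a fold of 7.67 from 16 fragments.

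Mafg (chr11:120628348-120633547, minus strand) had 1 shared region, and it was the strongest of the 6 in both replicates. Mafg 1 (chr11:120630245-120631042) lay in an intron of Mafg, 2.91 kb downstream of the TSS. It had a fold of 21.1 in replicate 1, from 64 fragments (49.3 to 81.7) with q = 3.67e-67. In replicate 2 the fold was 43.3, from 95 fragments (76.9 to 116) with q = 9.95e-138. Within each replicate its interval did not overlap that of any of the 5 regions at Maff, the highest of which had 22 fragments in replicate 1 and 28 in replicate 2. Its rank by fold was 357 of 16369 peaks in replicate 1, the top 2.18%, and 92 of 19015 in replicate 2, the top 0.484%. By the smaller of both folds it was in the top 3.23% of shared regions. Among the 4493 protein-coding genes with a nearest shared region, Mafg was at rank 268 by its best region, Maf at 1576 and Maff at 2455.

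**Figure D2:**
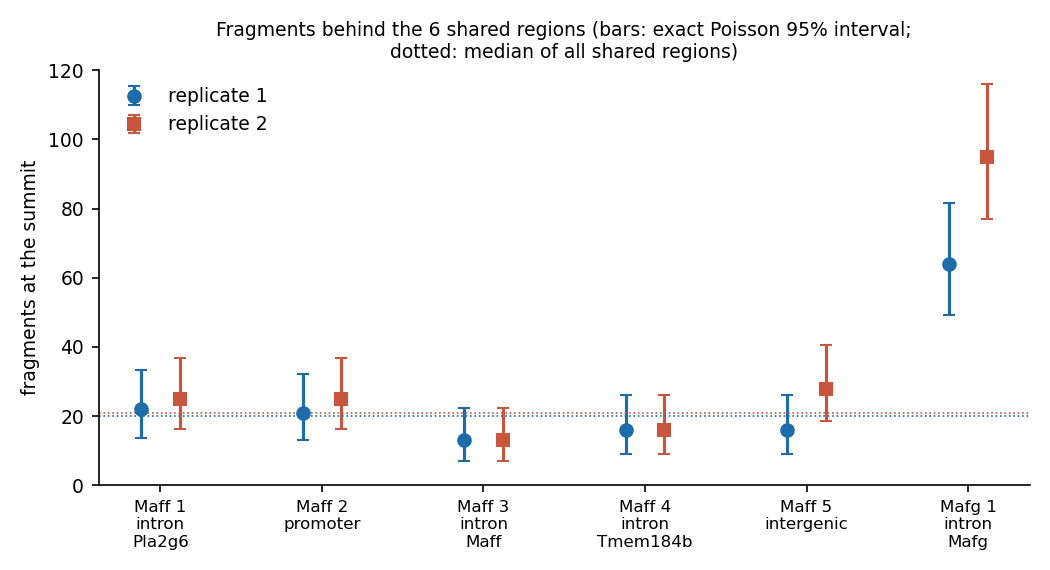
Number of fragments at the summit of each of the 6 shared regions, with exact Poisson 95% intervals, in replicate 1 (circles) and replicate 2 (squares). Dotted lines are the medians of all shared regions, 20 and 21 fragments. The 5 regions at Maff lie between 13 and 28 fragments, and the Mafg region at 64 and 95.

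The Mafg region was 798 bp wide, beside a median of 440 bp, and 9.67% of shared regions were at least as wide. Its summits lay 16 bp apart in the 2 replicates, beside a median gap of 49 bp. It also stood alone. The nearest other shared region was 277 kb away, and 4.56% of all shared regions were as isolated, with a median distance of 13.4 kb. This held although 18 other coding genes have a TSS within 100 kb of Mafg. Among the 472 protein-coding genes with 15 or more such neighbours, 73.1% had a shared region by the rule and 4.66% had 5 or more. In replicate 2 alone there was a peak at the 3′ end of Mafg, nearest to the sirtuin gene Sirt7, with a fold of 5.87 from 12 fragments, and a peak in the promoter of the proline synthesis gene Pycr1, with a fold of 5.42 from 11 fragments. The Mafg window held 1 of the 13 strings, the nuclear receptor string AGGTCA (chr11:120630703-120630708), and held neither SMAD string.

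**Figure D3:**
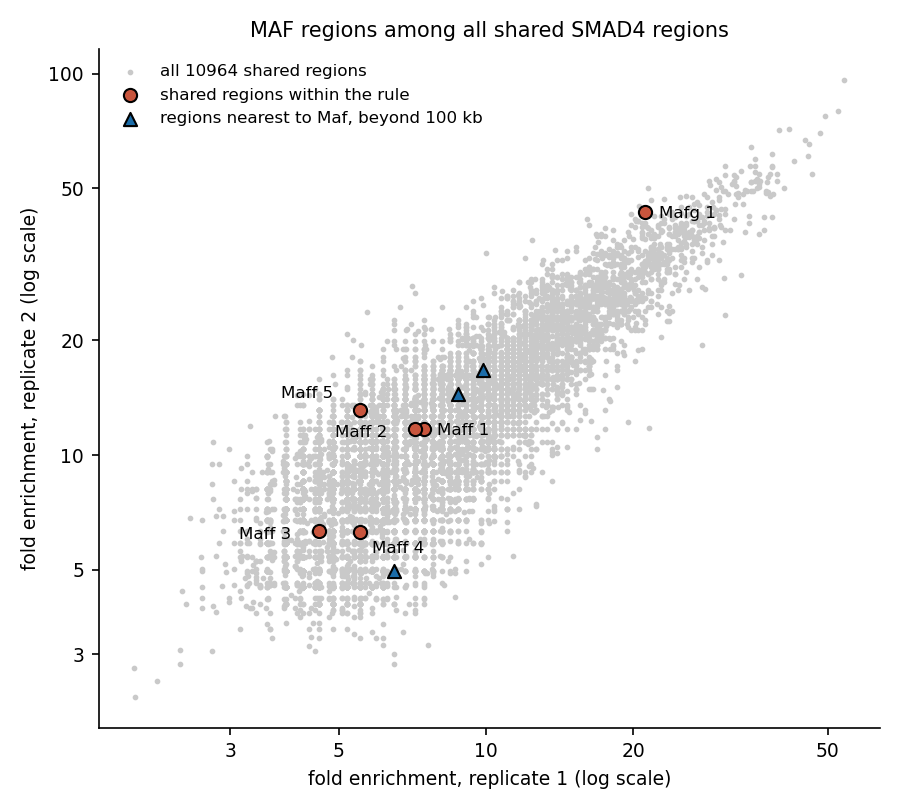
Fold enrichment in replicate 1 against replicate 2 (both log axes) for all 10964 shared regions (grey). Red circles are the 6 regions at Maff and Mafg and blue triangles the 3 regions nearest to Maf beyond 100 kb. The Mafg region, at 21.1 and 43.3, lies near the upper end, and the Maff regions lie inside the bulk.

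Mafk (chr5:139791536-139802652, plus strand), with 4 other coding genes within 100 kb, had 0 peaks in replicate 1 and 1 in replicate 2. That peak (chr5:139795107-139795225) lay in an intron 3.60 kb downstream of the TSS, with a fold of 4.51 from 9 fragments (4.12 to 17.1) and q = 0.000455, in the top 87.4% of its list. Its window, wider than the called peak, held an AP-1 string (TGAGTCA) outside the peak. It also held the SMAD string GTCTGG, as CCAGAC, across the edge of the peak. No peak had fewer than 9 fragments in replicate 1 or 7 in replicate 2, so a site of this height is close to what replicate 1 could call, and its absence there does not show that the replicates differed. The nearest shared regions were 296.1 kb and 316.6 kb from the TSS, and 20.8% of protein-coding genes were as far from one. The 7 peaks of replicate 2 without a counterpart at Maff, Mafg and Mafk had folds of 4.06 to 7.67 from 8 to 16 fragments, beside medians of 5.42 and 11 fragments over all 7758 such peaks.

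Over the 6 regions, the median folds were 6.34 and 11.7 in replicates 1 and 2, with medians of 18.5 and 25 fragments. All shared regions had medians of 6.83 and 9.48, and 20 and 21 fragments. The MAF regions were richer in G and C. Each window had a GC content between 50.8% and 57.7%, with a median of 53.5%, while the median of all shared regions was 43.8% and 14.2% of them reached the lowest value of the 6. GC content was not used by the rule, and its part in the fragment numbers was not tested.

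The C/EBP string TTGCNNAA was present in 3 of 6 windows, all at Maff, beside 40.9% of all shared regions. The MAF core string TGCTGA was in 2 of 6, beside 14.7%. PU.1 (GAGGAAGT), RUNX (TGTGGT), SMAD GTCTGG and the nuclear receptor string (AGGTCA) were each in 1 of 6, beside 8.0%, 26.4%, 11.2% and 15.4%. AP-1 (TGAGTCA), the SMAD palindrome GTCTAGAC, STAT5 (TTCNNNGAA), the E-box CACGTG, RBPJ (GTGGGAA), the antioxidant response element (ARE) and the full MAF recognition element (MARE) were in none. Those strings were in 8.91%, 0.465%, 8.06%, 3.65%, 4.14%, 3.17% and 0% of all shared regions. The MAF core string is contained in the MARE. The SMAD string depended on where the window was centred, with 3 of 6 windows around the summits of replicate 1 and 1 of 6 around those of replicate 2, beside 11.2% and 11.3% of all shared regions. A string is a match of letters, not a site.

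RefSeq promoter sequences (250 bp before to 50 bp after the start) of the same build were at hand for Maff, Mafg and Mafk, 3 of 4 members. The E-box CACGTG, the core that bHLH factors such as the AM regulator BHLHE41 bind, was present in a promoter of each of the 3 small MAF genes. It started 41 bp upstream of the Mafg TSS, 208 bp upstream of the Mafk TSS and 191 bp upstream of another Maff TSS. Of all 32817 promoters, 7.15% held it. That share is per promoter while the count is per gene, and Maff had 3 promoter sequences, Mafg and Mafk 1 each. None of the 3 promoter sequences with the E-box, that of Maff included, overlapped a peak of either list. The STAT5 string, as TTCCGGGAA, lay 27 bp downstream of the Maff TSS with the E-box (8.29% of promoters). The SMAD string GTCTGG lay 155 bp upstream of a further Maff TSS (18.0%). The MAF core string, as TCAGCA, lay 226 bp upstream of the Mafk TSS (19.5%). The C/EBP string under the Maff promoter peak was in 10.8% of promoters.

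The genes of the MAF dimer partners were counted by the same rule. All 6 had a shared region within it, beside 54.9% of all protein-coding genes, and 4 of 6 had such a region nearest to their own TSS, beside 20.9%. These counts were not tested. Nfe2l2, which encodes NRF2, had 11 shared regions, 5 of them nearest to it, with a strongest region at folds of 17.9 and 34.7. The share of protein-coding genes with as many regions was 0.526%. Nfe2, the erythroid and megakaryocyte CNC factor, had 3, with a strongest region nearest to it at 17.2 and 30.2. Bach1 had 5, of which the single one nearest to Bach1 had folds of 3.90 and 4.96, while the strongest, at 34.8 and 51.9, was nearest to Map3k7cl. Bach2 had 3, with 1 nearest to it at 5.85 and 3.44, while the strongest, at 10.4 and 12.6, was nearest to Bach2os. Nfe2l1 and Nfe2l3 had 1 and 2, none nearest to them. Neither large MAF gene outside the set, Mafa or Nrl, had a region nearest to it, with 1 and 2 within the rule. The fold of the Mafg region was above the strongest region nearest to any of the 6 partners in both replicates.

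**Figure D4:**
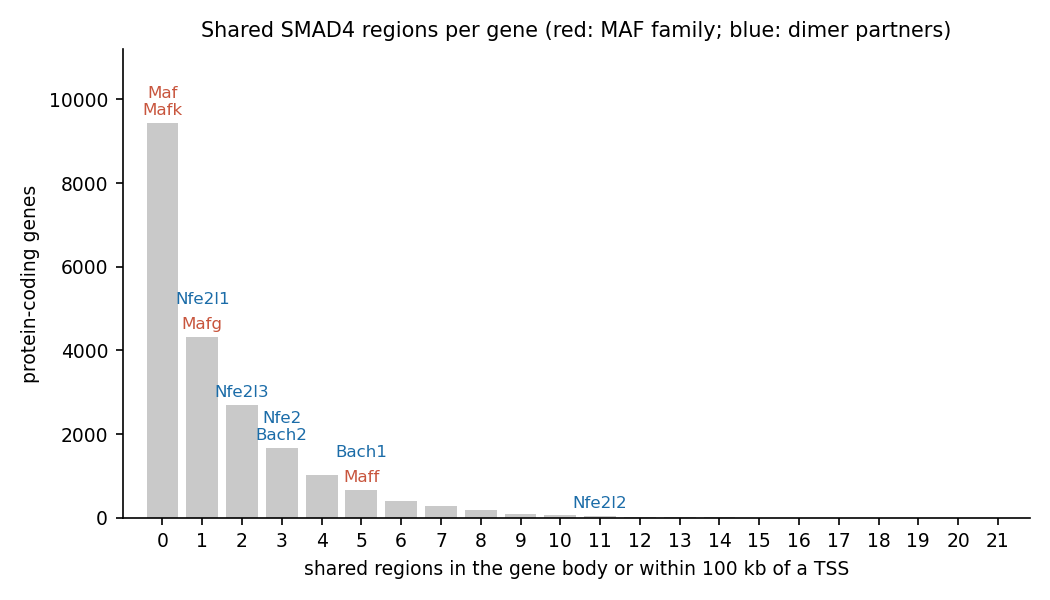
Number of protein-coding genes (bars) by the number of shared regions in the gene body or within 100 kb of a TSS. The MAF genes are named in red and the dimer partners in blue above their bar. Maf and Mafk stand with the 9437 genes at 0, Mafg with 4315 genes at 1, Maff at 5 and Nfe2l2 at 11.

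As a check of the labelled cell type, all 8 AM genes (Siglecf, Marco, Chil3, Pparg, Fabp4, Itgax, Car4 and Mrc1) had a shared region by the rule and 7 of 8 had such a region nearest to them, beside 54.9% and 20.9% of all protein-coding genes. Genes of other lung or blood cells (Sftpc, Epcam, Pecam1, Cd3e and S100a8) had one by the rule in 5 of 5 and nearest to them in 2 of 5, also above those shares. Presence within 100 kb did not separate the lists, and binding is not expression.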

How the data were processed

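The samples were 2 SMAD4 HT-ChIPmentation libraries and 2 inputs of mouse AMs, grouped by the labels. The inputs entered only through the control level of the peak caller. Replicate numbers follow accession order and pair nothing. The authors used Cutadapt for trimming and Bowtie2 for alignment to mm10, removed duplicates, kept proper pairs of high mapping quality, and called peaks in each sample with MACS3 at q 0.05 with input as control. Per the file layout, each deposited peak carries a fold ratio, −log10 p and q values of its summit, a score (−log10 q on a scale 10 times as large, without decimals, not used further) and a summit position. These are the authors' own values and were not tested again. The labels name ProteinTech as antibody supplier and the methods name another, which was left as it stands.

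Fragments at the summit and the control level were solved from the fold and p, to within 0.000517% of the deposited value for every peak. The calculation was tested on simulated data. RefSeq gave 45657 curated transcripts (26089 genes) on the 20 chromosomes in the lists, from GRCm38, and 0 peak ends lay beyond its chromosomes. Python 3.11.15, pandas 2.3.3, scipy 1.17.1 and pysam 0.24.0 were used. Features followed the default definitions of HOMER. Strings were searched in 100 bp on each side of the mean summit.

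The members, gene lists and strings were chosen with earlier results of these data known. A gene of the marker list for other cells is not reported here. Named genes were the members, genes nearest to their shared regions, the dimer partners, Mafa and Nrl. Wwox, Map3k7cl, Bach2os, Csnk1e, Sirt7 and Pycr1 were named after their values were seen. With 1 group of 2 samples no test was made. Sequencing totals were not used here, so depth is given as fragments at summits, and intervals cover counting error only.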

Additional observations from a re-analysis of the deposited data

How the results depend on the processing

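The 6 shared regions became 5 with a 50% reciprocal overlap, a fold of at least 5 or a limit of 50 kb, 7 with a limit of 200 kb, and 3 with a limit of 10 kb, where the peaks fell to 3 in replicate 1 and 8 in replicate 2. Maff 3 was the region lost with the 50% reciprocal overlap and with a fold of at least 5. In both settings the regions nearest to a MAF gene fell from 3 to 2. Limits on q of 0.01 and 0.001, summits within 100 bp and predicted transcripts left 6 shared regions. With 1 replicate alone, the count of regions ran from 6 to 13, those nearest to a MAF gene from 3 to 7, and the genes with a region from 2 to 3. The median fold in replicate 2 was 6.28 over all 13 of its peaks. The genes with a shared region were 2 under each setting that used both replicates. The count of windows with any string was 4 with 50 bp on each side and 6 otherwise. With 100 bp on each side of the mean summit, 81.6% of all shared regions also held at least 1 of the strings. Of 52 values for single strings, 11 moved by over 1.5 times, and the GTCTGG count ran from 0 to 3.

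No paired analysis was possible because both SMAD4 libraries are of 1 group and the replicate numbers pair nothing. Depth limits what was detectable: no peak had fewer than 9 fragments in replicate 1 or 7 in replicate 2, so weaker binding could not be seen, and the 0 peaks at Maf, or at Mafk in replicate 1, do not show that SMAD4 was absent.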
